A study of Mus musculus with 18 samples.

Results

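Nr1i3 (CAR), Nr1i2 (PXR), Cyp2b9, Cyp2b10, Cyp2b13, Cyp3a11, Cyp2c29 and Slco1a4 are receptors of foreign compounds in the liver and genes known as their targets. These 8 genes were found by name among the 54532 genes listed in each of 2 deposited tables of mouse liver RNA-seq, 1 without and 1 with fenofibrate. They were chosen with the diet differences of these livers already known, so their diet differences are given as descriptions with no p-value. Whether the fit of all genes called them is stated once, beside the share of all genes called, and supports nothing about them. All mice were male C57BL/6J with the WT genotype, started their diets at 4 wk of age and were fasted overnight before harvest. Without fenofibrate, 5 mice were fed a control diet (Ctrl) and 5 a 99% riboflavin-deficient diet (B2D) for 1 month. With fenofibrate, a PPARα agonist, 4 mice were fed the control diet (Ctrl+FF) and 4 the deficient diet (B2D+FF) for 9 wk. They received 300 mg/kg each day by gavage in weeks 7 to 9 and were dosed 2 hr before harvest. Each mouse gave 1 library, and mice are numbered within their group.

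CAR and PXR are nuclear receptors that sense drugs, bile acids, steroids and other small molecules, pair with RXR and bind DNA at hexamers related to AGGTCA or AGTTCA. CAR is held in the cytosol with HSP90 until it is released, whereas PXR binds its ligands directly. Their targets include the P450 enzymes that oxidize these compounds, the enzymes that conjugate the products and the transporters that move them across the hepatocyte membrane. In adult mouse liver Cyp2b10 is the classic CAR target and Cyp3a11 the classic PXR target, while Cyp2b9 and Cyp2b13 are known as P450s of female liver.

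Values are FPKM, in which fragments are divided by gene length and by library size. The deposited lengths were 5093 bases for Cyp3a11, 3061 for Cyp2c29 and 6414 for Slco1a4. The longest coding transcripts of these genes have 2344, 1783 and 3823 bases, whereas Cyp2b9 has 1876 by both counts. Levels of different genes can therefore be compared only roughly. Between 15320729 and 21898502 reads per library were counted on genes, and in every library 100% of the values were whole reads within 0.01 read. A count of 0 allows up to 3 reads, and such limits cover counting error only. The tables were normalized separately, and fenofibrate, the time on diet and the table changed together, so levels with and without fenofibrate are set side by side with no test. In whole liver, fewer cells of a type and less RNA per cell cannot be told apart. Nothing in the labels ties mice to litters or cages, so the spread given is that between mice.

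The hepatocyte markers Alb, Ttr, Apoa1, Cps1 and Tat all lay above the mean of 0.5 FPKM used as the filter. Their summed level, mostly Alb, ranged from 31740 to 46080 FPKM without and from 18590 to 24100 with fenofibrate. Without fenofibrate each of them overlapped between diets. With it Alb and Ttr were lower in every B2D+FF than in every Ctrl+FF mouse. Tat was higher, at 583.5 to 1007 beside 174.5 to 354.1 FPKM, and Apoa1 and Cps1 overlapped. Of all genes tested 14.3% did not overlap there, and the cause was not tested. Among intestinal epithelium markers Cdx2 was at 0 in every library and only Fabp2 was above the filter, and the summed lymphocyte markers reached 2.12 FPKM at most.

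The 3 Cyp2b genes lie within one cluster on chromosome 7 of GRCm38, Cyp2b10 (ENSMUSG00000030483) at chr7:25897620-25926624, Cyp2b13 (ENSMUSG00000040583) at chr7:26061497-26096197 and Cyp2b9 (ENSMUSG00000040660) at chr7:26173411-26210661, all on the plus strand. Their promoters are shown because Cyp2b9 and Cyp2b13 shared nearly the same one and yet stood far apart in level. The RefSeq windows (GRCm38.p6, 250 bases before to 50 after the start, 300 in all) of Cyp2b9 and Cyp2b13 were identical at 298 of 300 bases, or 99.3%, and that of Cyp2b10 matched each at 70.7% of 311 aligned columns. Counted from 1 at the 5′ end, with the Cyp2b9 base first and the Cyp2b13 base last, the differences were T48C and C104T. The 250 bases before each start are given 5′ to 3′, with AGGTCA in capitals. They lie at chr7:26173159-26173408 for Cyp2b9, at chr7:26061245-26061494 for Cyp2b13 and at chr7:25897408-25897657 for Cyp2b10.
Cyp2b9: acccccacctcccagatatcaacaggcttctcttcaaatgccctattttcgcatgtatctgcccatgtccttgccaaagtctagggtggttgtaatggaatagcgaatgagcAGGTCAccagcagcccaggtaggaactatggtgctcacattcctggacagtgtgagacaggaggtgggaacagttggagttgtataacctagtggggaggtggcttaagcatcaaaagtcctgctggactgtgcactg
Cyp2b13: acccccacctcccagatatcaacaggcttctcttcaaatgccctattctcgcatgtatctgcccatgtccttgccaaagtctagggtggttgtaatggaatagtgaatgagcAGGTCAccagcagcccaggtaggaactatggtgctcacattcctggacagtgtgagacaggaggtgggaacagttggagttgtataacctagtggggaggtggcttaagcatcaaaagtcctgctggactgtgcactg
Cyp2b10: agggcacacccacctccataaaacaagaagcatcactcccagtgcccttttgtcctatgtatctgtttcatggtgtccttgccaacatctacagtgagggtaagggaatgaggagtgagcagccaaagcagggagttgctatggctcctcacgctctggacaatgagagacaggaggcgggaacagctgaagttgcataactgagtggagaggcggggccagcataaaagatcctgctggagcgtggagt
The single AGGTCA of Cyp2b9 and Cyp2b13 fell at positions 113 to 118, and neither AGGTCA nor AGTTCA was found on either strand of the Cyp2b10 window.

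Of the other members, Cyp3a11 (ENSMUSG00000056035, chr5:145854426-145879964, minus strand) held both hexamers, AGGTCA at 89 to 94 and AGTTCA on the opposite strand at 109 to 114, the latter written TGAACT. Its 250 bases before the start, at chr5:145879855-145880104 on the minus strand, are shown to give the spacing, with both hexamers in capitals.
Cyp3a11: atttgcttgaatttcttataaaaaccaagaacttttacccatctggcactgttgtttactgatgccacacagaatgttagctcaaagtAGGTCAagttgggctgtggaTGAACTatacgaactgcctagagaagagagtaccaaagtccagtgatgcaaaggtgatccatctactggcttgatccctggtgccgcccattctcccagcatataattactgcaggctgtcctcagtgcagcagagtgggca
Cyp2c29 held AGGTCA at 97 to 102, and Nr1i3, Nr1i2 and Slco1a4 held neither. The RefSeq window of Cyp2c29, chr19:39286835-39287134, lies inside the span of chr19:39269405-39330713 deposited for the gene. Thus 4 of 8 members had AGGTCA and 1 of 8 had AGTTCA, against 16.3% and 14% of 32851 RefSeq promoters of the same length, both strands searched. The matches of Cyp2b9 and Cyp2b13 are the same site in near-identical windows, so they are not separate observations. The direct repeats searched, with 4 bases between the hexamers, were in none of the 8 members. Among all promoters AGGTCA followed by AGTTCA was in 0%, AGTTCA followed by itself in 0.0122% and AGGTCA followed by itself in 0.0152%. Other orders and spacings of the hexamers were not searched, and these matches describe letters in short windows only.

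Both receptors were expressed in every liver. Nr1i3 (ENSMUSG00000005677, chr1:171213970-171220701, plus strand), which encodes CAR, was at 16.1, 20.3, 20.4, 21.7 and 15.3 FPKM in Ctrl 1 to 5 and at 13.6, 17.4, 14.5, 18.8 and 19.6 in B2D 1 to 5. These groups overlapped, with means of 18.8 ± 2.84 and 16.8 ± 2.66 FPKM (SD, n = 5 each). With fenofibrate Nr1i3 was at 24.7, 25.3, 28.5 and 25.3 FPKM in Ctrl+FF 1 to 4 and at 21.4, 14.6, 24.1 and 24.0 in B2D+FF 1 to 4. Every B2D+FF mouse lay below every Ctrl+FF mouse, B2D+FF 2 by the widest margin, and the ratio of the means was 0.810 (0.770 to 0.893 with 1 mouse left out).

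Nr1i2 (ENSMUSG00000022809, chr16:38248323-38294824, minus strand), which encodes PXR, was at 42.0, 36.9, 41.9, 50.4 and 45.5 FPKM in Ctrl and at 36.1, 24.9, 31.9, 36.4 and 33.0 in B2D. The highest B2D mouse lay just under the lowest Ctrl mouse, and the means were 43.3 ± 4.98 and 32.4 ± 4.67 FPKM (SD, n = 5 each), a ratio of 0.748. With fenofibrate it was at 47.7, 50.4, 48.1 and 62.5 FPKM in Ctrl+FF and at 46.3, 49.97, 64.5 and 67.8 in B2D+FF. Here the groups overlapped, with a ratio of 1.09 (1.03 to 1.17 with 1 mouse left out). The diet groups thus stood apart for PXR without and for CAR with fenofibrate, neither was called in the fit of all genes, and that contrast between settings was not tested. On the log2(FPKM + 1) scale the differences were −0.41 (SE 0.121) for Nr1i2 without fenofibrate and −0.32 (SE 0.169) for Nr1i3 with it.

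**Figure D1:**
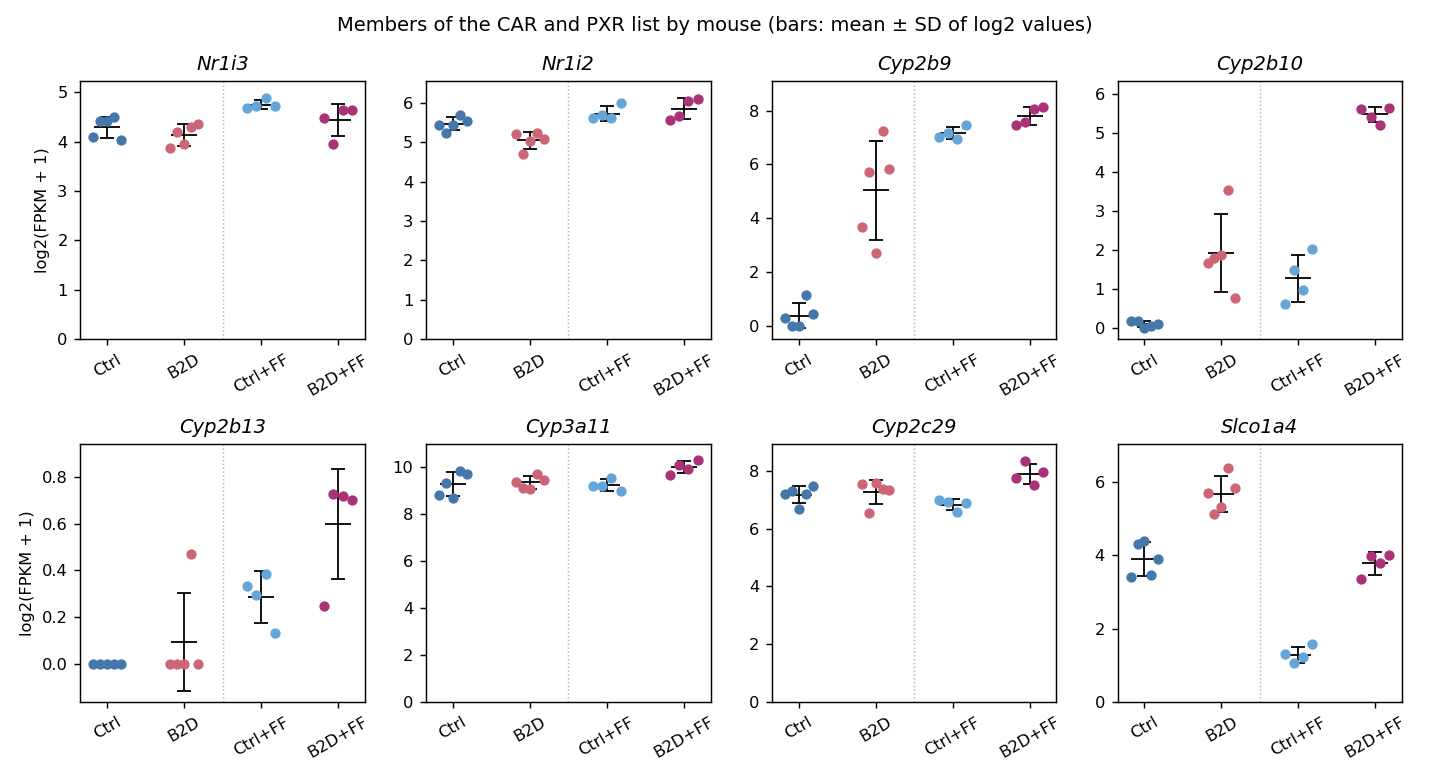
Level of each of the 8 genes in every liver, as log2(FPKM + 1) on the vertical axis of each panel, by group on the horizontal axis. Points are mice, the long tick and bars are the mean ± SD of the log2 values, and the dotted line parts the tables that were normalized separately; the receptors and Cyp3a11 spread over a narrow range, whereas Cyp2b9, Cyp2b10 and Slco1a4 are higher in every B2D mouse than in every Ctrl mouse.

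The Cyp2b genes were nearly silent in Ctrl livers. By the difference in mean log2(FPKM + 1), the widest diet difference of the list was that of Cyp2b9 without and of Cyp2b10 with fenofibrate. Cyp2b9, a P450 of female liver, was at 0.210, 0, 0, 1.21 and 0.357 FPKM in Ctrl 1 to 5 and at 11.6, 51.8, 5.44, 152 and 55.8 in B2D 1 to 5. Every B2D mouse lay above every Ctrl mouse, and the B2D mice themselves spanned 5.44 to 152 FPKM, with B2D 4 highest and B2D 3 lowest. The Ctrl values rested on 0 to 45 reads per library and the B2D values on 179 to 5552. The means were 0.355 ± 0.50 and 55.4 ± 58.9 FPKM (SD, n = 5 each), a ratio of 156 that was 87.8 without B2D 4 and 391 without Ctrl 4. The log2 difference was 4.66 (SE 0.848) on the log2(FPKM + 1) scale, where low values make a change look smaller.

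With fenofibrate Cyp2b9 was high on both diets. It was at 129.7, 143, 123 and 176 FPKM in Ctrl+FF 1 to 4 and at 176.4, 189.6, 265 and 283 in B2D+FF 1 to 4. All B2D+FF mice lay above all Ctrl+FF mice, although B2D+FF 1 and Ctrl+FF 4 were almost level. The means were 143 ± 23.4 and 228 ± 53.3 FPKM (SD, n = 4 each), a ratio of 1.60, and the log2 difference was 0.66 (SE 0.204). Beside the mice without fenofibrate, the mean was 403-fold higher on the control diet and 4.12-fold higher on the deficient diet, and the ranges did not overlap on either. These ratios were 1009 without Ctrl 4 and 7.33 without B2D 4.

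Cyp2b10 followed another order. This classic CAR target was at 0.133, 0.136, 0, 0.0477 and 0.0679 FPKM in Ctrl, from 0 to 5 reads per library. In B2D it was at 2.19, 2.50, 2.64, 10.6 and 0.697 FPKM, from 28 to 433 reads, so that B2D 4 was highest and B2D 5 lowest and all lay above Ctrl. The means were 0.0770 ± 0.0581 and 3.72 ± 3.90 FPKM (SD, n = 5 each), a ratio of 48.3 that was 26.1 without B2D 4, and the log2 difference was 1.82 (SE 0.449).

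With fenofibrate Cyp2b10 was at 0.548, 1.78, 0.981 and 3.07 FPKM in Ctrl+FF 1 to 4 and at 47.9, 41.8, 36.1 and 49.0 in B2D+FF 1 to 4. The B2D+FF mice were tightly grouped and stood more than an order of magnitude above the highest Ctrl+FF mouse. The means were 1.60 ± 1.11 and 43.7 ± 5.98 FPKM (SD, n = 4 each), a ratio of 27.4 (22.5 to 39.6 with 1 mouse left out), and the log2 difference was 4.19 (SE 0.319). Set beside the mice without fenofibrate, Cyp2b10 was 20.7-fold higher on the control diet and 11.8-fold higher on the deficient diet, or 21.8-fold without B2D 4. In Ctrl+FF, where Cyp2b9 averaged 143 FPKM, Cyp2b10 thus did not exceed 3.07 FPKM in any mouse. In B2D+FF both lay above 36 FPKM in every mouse.

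Cyp2b13 remained near the limit of detection. It had no reads in any Ctrl mouse, which allows up to 0.0765 to 0.092 FPKM, and among the B2D mice only B2D 4 had reads, 14 of them, or 0.385 FPKM. It was at 0.260, 0.227, 0.307 and 0.0944 FPKM in Ctrl+FF and at 0.188, 0.655, 0.644 and 0.625 in B2D+FF, from 3 to 10 and from 6 to 25 reads. The groups overlapped through B2D+FF 1, and Cyp2b13 did not reach the filter in either table. In Ctrl+FF, behind promoter windows that were 99.3% identical, Cyp2b13 averaged 0.222 FPKM and Cyp2b9 143 FPKM.

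Because the copies are alike, they were also summed. The 3 transcripts were 83.7% to 89.1% identical in pairs. Of the windows of 50 bases in a transcript, 10.8% for Cyp2b9, 8.57% for Cyp2b10 and 20% for Cyp2b13 were found in another gene, and of the windows of 150 bases, the length of 1 sequenced end, none were. How reads that map to several genes were treated is not given in the sources used here, so the low Cyp2b13 values are uncertain. The sum was 0.343, 0.136, 0, 1.26 and 0.425 FPKM in Ctrl and 13.8, 54.3, 8.08, 163 and 56.5 in B2D. With fenofibrate it was 130.5, 145, 125 and 179 FPKM in Ctrl+FF and 225, 232, 301 and 333 in B2D+FF. The groups of each table did not overlap, and the ratios of the means were 137 without and 1.88 with fenofibrate. The first was 76.8 without B2D 4 and 262 without Ctrl 4.

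The make-up of the sum differed between groups. Cyp2b9 made up 67.3% to 98.8% of it in B2D, 98.2% to 99.4% in Ctrl+FF and 78.6% to 87.8% in B2D+FF. Cyp2b10 made up 1.24% to 32.7%, 0.420% to 1.72% and 12.0% to 21.4%, so every B2D+FF mouse had a larger share of Cyp2b10 than every Ctrl+FF mouse. Cyp2b13 never exceeded 0.282% of the sum.

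**Figure D2:**
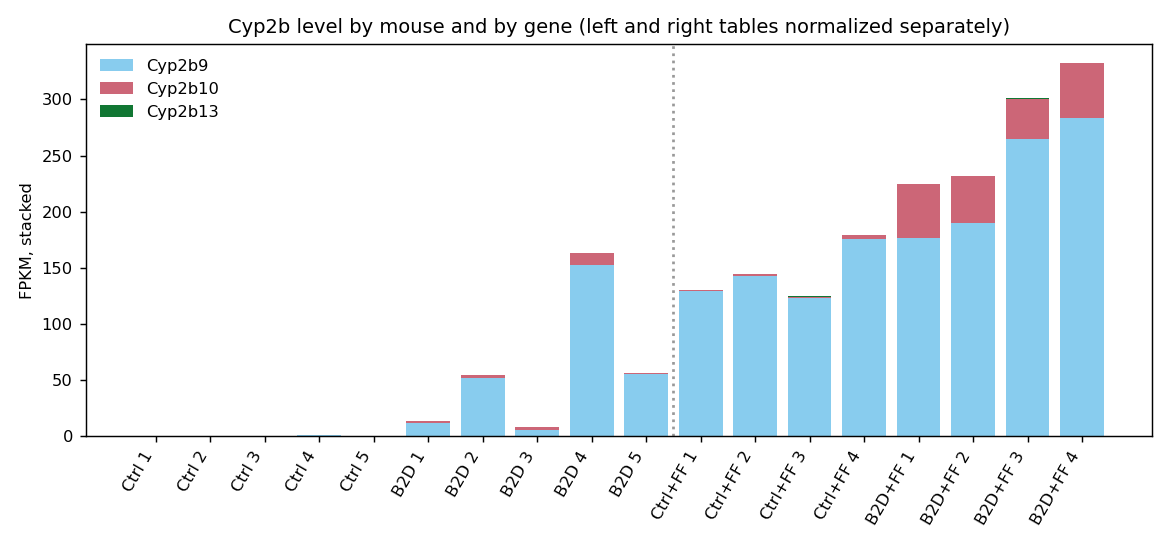
Summed FPKM of Cyp2b9, Cyp2b10 and Cyp2b13 on the vertical axis for each of the 18 mice on the horizontal axis, stacked by gene, with a dotted line between the tables. The bars are barely visible in Ctrl, range from 8.08 to 163 in B2D and from 125 to 333 with fenofibrate, and the Cyp2b10 part is clear in B2D+FF and thin in Ctrl+FF.

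Cyp3a11, a major P450 of drug and steroid oxidation and the classic PXR target, was the most abundant member in all 4 groups. It was at 444, 638, 412, 898 and 822 FPKM in Ctrl and at 661, 544, 532, 838 and 699 in B2D. These ranges overlapped, with means of 643 ± 218 and 655 ± 125 FPKM (SD, n = 5 each). With fenofibrate it was at 584, 583, 745 and 498 FPKM in Ctrl+FF and at 814, 1081, 954 and 1243 in B2D+FF. All B2D+FF mice lay above all Ctrl+FF mice, and the means were 603 ± 103 and 1023 ± 183 FPKM (SD, n = 4 each), a ratio of 1.70. The log2 difference was 0.08 (SE 0.257) without and 0.76 (SE 0.177) with fenofibrate. Of the Cyp3a11 transcript's windows of 50 bases 14.8% were found in other genes, and none of 150 bases were.

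Cyp2c29 (ENSMUSG00000003053, chr19:39269405-39330713, plus strand), a Cyp2c enzyme inducible by CAR activators, showed the same arrangement. It was at 146, 155, 101, 147 and 176 FPKM in Ctrl and at 185, 92.0, 192, 163 and 159 in B2D, and the groups overlapped. With fenofibrate it was at 125, 119, 93.9 and 117 FPKM in Ctrl+FF and at 216, 323, 179 and 245 in B2D+FF. There the groups stood apart, with B2D+FF 2 highest, and the means were 114 ± 13.5 and 241 ± 61.1 FPKM (SD, n = 4 each), a ratio of 2.12. The log2 difference was 0.10 (SE 0.231) without and 1.05 (SE 0.200) with fenofibrate.

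Slco1a4 (ENSMUSG00000030237, chr6:141805440-141856199, minus strand), an uptake transporter of bile acids and organic anions, was higher on the deficient diet in both tables. It was at 9.63, 18.9, 19.9, 10.1 and 13.8 FPKM in Ctrl and at 50.6, 34.2, 38.8, 82.2 and 56.4 in B2D. No B2D mouse fell within the Ctrl range, B2D 4 was again highest, and the means of 14.5 ± 4.8 and 52.4 ± 18.9 FPKM (SD, n = 5 each) gave a ratio of 3.63. With fenofibrate it was at 1.47, 1.09, 1.32 and 1.98 FPKM in Ctrl+FF and at 9.17, 14.7, 12.8 and 15.05 in B2D+FF. The ratio of these means, 1.46 ± 0.377 and 12.9 ± 2.70 FPKM (SD, n = 4 each), was 8.83, and the log2 difference was 1.78 (SE 0.298) without and 2.49 (SE 0.186) with fenofibrate. Unlike the Cyp2b genes, Slco1a4 was lower in the fenofibrate table on both diets, 9.87-fold on the control diet and 4.05-fold on the deficient diet, and the ranges did not overlap.

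**Figure D3:**
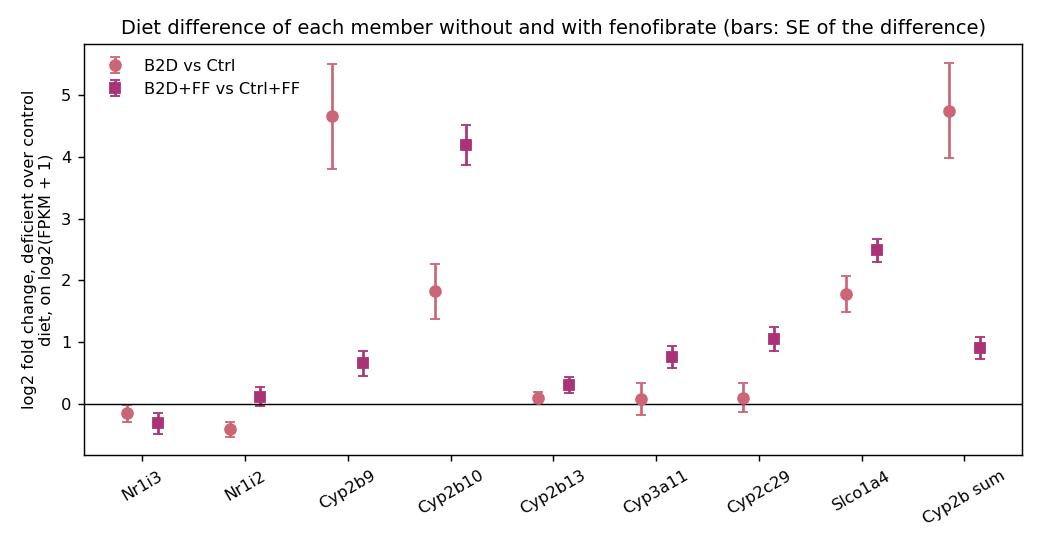
Difference between diets in mean log2(FPKM + 1) on the vertical axis for each gene and for the Cyp2b sum on the horizontal axis, without fenofibrate (circles) and with it (squares), with the SE of the difference as bars. Cyp2b9 stands at 4.66 and 0.66 and Cyp2b10 stands at 1.82 and 4.19, whereas Cyp3a11 and Cyp2c29 are near 0 without fenofibrate and at 0.76 and 1.05 with it; Cyp2b13 is drawn although it did not reach the filter.

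In the fit of all genes with limma, Cyp2b9, Cyp2b10 and Slco1a4 were among the genes called higher in B2D than in Ctrl (Benjamini-Hochberg adjusted p under 0.05), and no member was called lower. Of the 11574 genes tested 2.7% were called, 0.769% higher and 1.94% lower. With fenofibrate Cyp2b10, Cyp3a11, Cyp2c29 and Slco1a4 were called higher and no member lower, where 4.45% of 11878 genes were called, 2.24% higher and 2.21% lower. Groups without overlap were seen for Nr1i2, Cyp2b9, Cyp2b10 and Slco1a4 without fenofibrate and for every tested member but Nr1i2 with it, against 4.98% (2.08% higher and 2.89% lower) and 14.3% (7.82% higher and 6.44% lower) of all genes tested. As the members were chosen on these contrasts, nothing is read from these counts. Cyp2b13 was not tested in either table, and Cyp2b9 and Cyp2b10 reached the filter without fenofibrate only through the B2D mice. The call of Cyp2b10 without fenofibrate was lost when Ctrl 1, Ctrl 2, Ctrl 4 or B2D 2 was left out. That of Cyp3a11 was lost when 1 mouse was left out in 6 of 8 cases, namely Ctrl+FF 1, 2 or 4 or B2D+FF 2, 3 or 4. On recovered reads with limma voom, Cyp2b9 was called with fenofibrate and not called without it, and with limma array weights it was called with fenofibrate too. With no filter on low values the calls of Cyp2b10 without and Cyp3a11 with fenofibrate were lost.

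The order of levels within a group, which depends on the gene lengths used, also differed. Cyp3a11 and Cyp2c29 led in Ctrl, at means of 643 and 145 FPKM, followed by Nr1i2, Nr1i3 and Slco1a4, and the ranges of Nr1i3 and Slco1a4 overlapped. In B2D the ranges of neighbours overlapped from Cyp2c29 through Cyp2b9 and Slco1a4 to Nr1i2. In Ctrl+FF Cyp2b9 came second, overlapping Cyp2c29, and Slco1a4 stood at the level of Cyp2b10, at 1.46 and 1.60 FPKM. In B2D+FF Cyp2b10 moved up in rank to overlap Nr1i2, at 43.7 and 57.1 FPKM, and Cyp2b13 was last in every group.

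How members varied together within groups was described over mice. Over the 18 libraries, the Pearson correlation of deviations from the group mean of log2(FPKM + 1) ranged over the 21 pairs from −0.589 for Nr1i3 and Cyp2c29 to 0.515 for Nr1i3 and Cyp2b9, and it was 0.381 for Cyp2b9 and Cyp2b10. These values share the libraries and their scaling and are a description only. B2D 4 nevertheless held the highest B2D value of Nr1i2, Cyp2b9, Cyp2b10, Cyp2b13, Cyp3a11 and Slco1a4. By the same measure over 11031 genes, those most like Cyp2b9 were Cyp2a22 (0.869), Gm31333 (0.859), Gm45086 and Gm30177 (0.843 each) and Sec31b (0.841). Those most like Cyp2b10 were Ppp2r2d (0.794), Ly6d (0.788), Rnf149 (0.780), Gm16286 (0.776) and Ap1m1 (0.756). Without B2D 4 these last 5 values were 0.582 to 0.653.

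Whether other genes of the CAR and PXR pathway differed with diet was asked of a list of 87 genes, of which 86 were matched by name. Without fenofibrate 71 were tested, 37 higher and 34 lower in B2D. Their median log2 fold change was 0.03 beside −0.0013 over all genes tested. With limma and Benjamini-Hochberg adjustment over all genes, 2 of them fell and 0 rose, 2.82% of those tested beside 2.7% of all genes, so the count does not set the list apart. At an unadjusted p under 0.05, 11 were higher and 14 lower, 15.5% and 19.7% beside 8.24% and 10.1% of all genes, and limma voom called 2 higher, Cyp2c37 and Sult1e1, and 2 lower. Sult1e1 reached the filter only through the B2D mice, at means of 0.0513 FPKM in Ctrl and 1.02 in B2D. The same held for Cyp2a4, at 0.273 and 9.20 FPKM. Alas1, the first enzyme of heme synthesis on which P450s depend, fell from 291 ± 21.9 to 164 ± 34.7 FPKM (SD, n = 5 each), with no overlap and a log2 fold change of −0.85 (SE 0.150, limma adjusted p = 0.0143). Slco1a1, an organic anion transporter next in family to Slco1a4 that is known to be higher in male liver, fell from 93.2 ± 31.3 to 22.3 ± 20.3 FPKM, with overlapping ranges (−2.36, SE 0.489, limma adjusted p = 0.0281). The limma call of Slco1a1 was lost without Ctrl 1, Ctrl 2, Ctrl 4 or B2D 2, with an adjusted p of up to 0.0851. Thus Slco1a4 was higher and its relative Slco1a1 lower in B2D.

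With fenofibrate 75 of the list were tested, 44 higher and 31 lower in B2D+FF, with a median log2 fold change of 0.19 beside 0.01 over all genes, and 3 rose and 3 fell, 8.0% beside 4.45% of all genes tested. At an unadjusted p under 0.05, 22 were higher and 11 lower, 29.3% and 14.7% beside 11.3% and 9.93% of all genes. Cyp2c37, a Cyp2c enzyme like Cyp2c29, rose without overlap from 34.5 ± 1.48 to 109 ± 31.6 FPKM (SD, n = 4 each). Its log2 fold change was 1.58 (SE 0.191, limma adjusted p = 0.00391). Gadd45b, a stress gene known to be induced by CAR activators, rose from 11.7 to 26.1 FPKM (1.09, limma adjusted p = 0.0120). Pck1, the gluconeogenic enzyme that CAR and PXR are known to repress, rose from 542 to 975 FPKM (0.84, limma adjusted p = 0.0407). Scd1, which makes monounsaturated fatty acids, fell from 2287 to 667 FPKM (−1.74, limma adjusted p = 0.0181). The glutathione transferase Gstt1 fell from 212 to 157 FPKM (−0.43, limma adjusted p = 0.0455) and the carboxylesterase Ces2c from 20.3 to 14.01 FPKM (−0.50, limma adjusted p = 0.0459). The call of Pck1 was lost without Ctrl+FF 1, 2 or 3 or B2D+FF 2, 3 or 4 (adjusted p up to 0.114), that of Gstt1 without Ctrl+FF 1, 2 or 3 or any B2D+FF mouse (up to 0.141) and that of Ces2c without Ctrl+FF 1, 2 or 3 or B2D+FF 1, 3 or 4 (up to 0.124). That of Scd1 was lost without Ctrl+FF 1, Ctrl+FF 2 or B2D+FF 1 (up to 0.0647).

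By class, none of the 18 receptor partners and coregulators passed the limma threshold in either table. At an unadjusted p under 0.05, 3 were higher and 2 lower without fenofibrate and 3 were higher and 3 lower with it, and limma voom called 0. Among the other P450s the medians were 0.24 over 11 genes and 0.44 over 12, and Cyp2c37, with fenofibrate, alone passed. At an unadjusted p under 0.05, 4 were higher and 0 lower without fenofibrate and 6 higher and 0 lower with it, and limma voom called Cyp2c37 higher without it and Cyp2c37, Cyp2c50 and Cyp2c54 higher with it. Among the other phase I and phase II enzymes the medians were 0.06 over 21 and 0.19 over 23. At an unadjusted p under 0.05, 3 were higher and 4 lower without fenofibrate and 8 higher and 3 lower with it. Of all genes 8.24% and 10.1% were so without it and 11.3% and 9.93% with it. In this class limma voom called 1 higher and 0 lower without fenofibrate and 2 higher and 2 lower with it. Rxra, the partner of both receptors, was at 91.0 and 92.7 FPKM in Ctrl and B2D and at 72.2 and 65.98 in Ctrl+FF and B2D+FF (limma adjusted p = 0.911 and 0.604). Hnf4a, a factor needed for expression of many P450s, was at 140 and 198 and at 123 and 156 FPKM (0.308 and 0.128), and did not overlap between Ctrl+FF and B2D+FF. Nr0b2, a corepressor, was at 10.3 and 15.8 and at 6.75 and 6.18 FPKM (0.866 and 0.966). Ppargc1a, a coactivator of the fasting response, was at 3.61 and 5.71 and at 1.85 and 3.64 FPKM (0.195 and 0.111). Por, the flavoprotein that hands electrons to every microsomal P450, was at 255 and 263 and at 279.8 and 374 FPKM (0.894 and 0.174), and Alas1 with fenofibrate at 173 and 202 FPKM (0.471). The values in parentheses are limma adjusted p-values without and with fenofibrate. Ppargc1a passed without Ctrl 3 (0.0207) and, with fenofibrate, without B2D+FF 1 (0.0304) or with array weights (0.0411), and Por without B2D+FF 2 (0.0453).

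**Figure D4:**
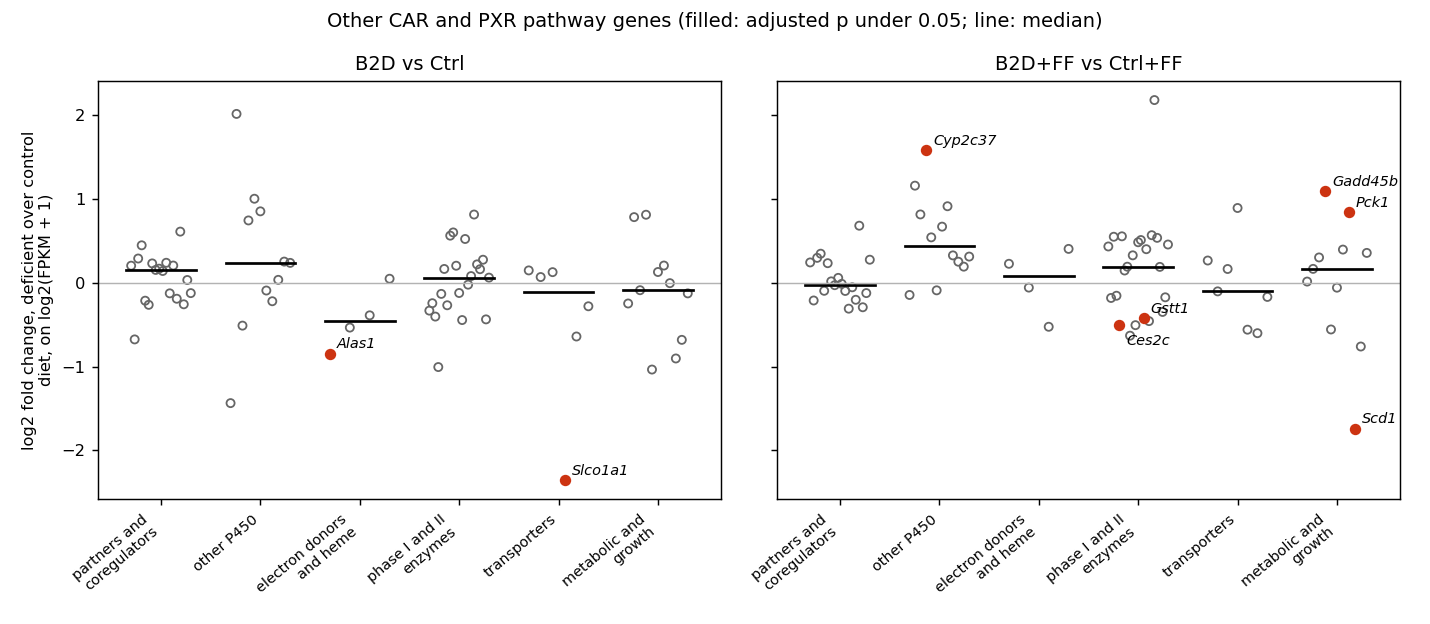
Log2 fold change between diets on the vertical axis for the pathway genes tested, by class on the horizontal axis, without fenofibrate (left) and with it (right). Filled points passed the limma threshold, 2 on the left and 6 on the right, and black lines are class medians, which lie between −0.46 and 0.44.

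As Cyp2b9 and Cyp2b13 are known as genes of female liver, lists of 18 genes higher in female and 18 higher in male mouse liver were set beside them. The lists were written with earlier results of these livers known and are no independent evidence. Of the female list, 8 genes were tested without fenofibrate, and 4 were called higher by limma, with a median log2 fold change of 1.19. They included Cux2, a transcription factor of female liver (from 0.0417 to 1.82 FPKM), and the flavin monooxygenase Fmo2 (6.60 to 23.6). Cux2, and Cyp2a4 and Atp6v0d2 which were not called, reached the filter only through the B2D mice. The count and median are thus weighted towards genes high in B2D. Below the filter, Hao2, Prom1 and Ntrk2 had lower means in B2D. Cyp3a44, Sult2a1, Sult3a1 and A1bg had higher ones, and Cyp3a16, Cyp3a41a and Cyp3a41b were at 0. With fenofibrate 3 of 6 were called higher, Fmo2 (3.98 to 9.68), Hao2 (0.523 to 3.36) and Cyp2c40 (0.673 to 3.50), with a median of 1.12. The call of Cyp2c40 was lost when any mouse but B2D+FF 3 was left out. Of the male list, 15 of 18 tested were called lower without and 10 of 17 with fenofibrate, with medians of −1.70 and −1.16. Of all genes 1.94% and 2.21% were called lower. Selenbp2, of the selenium-binding proteins, fell from 7.59 to 0.699 FPKM and Mup20, a major urinary protein, from 5231 to 622 FPKM without fenofibrate, and Mup7 from 2866 to 29.4 FPKM with it. Single Mup values are uncertain, as that family has near-identical copies.

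Markers of liver zones and other cells were set beside the members. The summed pericentral markers, of the zone where CAR and PXR targets are mostly expressed, ranged from 4997 to 8448 FPKM in Ctrl, 3989 to 6688 in B2D, 5628 to 6950 in Ctrl+FF and 4588 to 7374 in B2D+FF, and overlapped within each table. Most of this sum was Cyp2e1, at a mean of 4840 FPKM in Ctrl. The highest Ctrl sum included Cyp1a2, also in the pathway list, at 1906 FPKM in Ctrl 5 beside 71.5 to 149 in the other Ctrl mice. The summed periportal markers overlapped without fenofibrate and did not with it, at 1275 to 1794 FPKM in Ctrl+FF and 1947 to 2997 in B2D+FF. Within that list Sds, Ass1 and Pck1, which is also in the pathway list, were higher in B2D+FF without overlap, Hal and Gls2 overlapped, and Cyp2f2 was lower without overlap, at 183 to 239 FPKM in Ctrl+FF and 78.0 to 163 in B2D+FF. Cyp2f2 was also lower without fenofibrate, at 351 to 381 FPKM in Ctrl and 108 to 206 in B2D. The periportal markers thus did not move together. The summed lymphocyte markers did not overlap with fenofibrate either, at 0.971 to 1.28 and 0.140 to 0.733 FPKM, all near the limit of detection. The sums for Kupffer, stellate, endothelial and bile duct cells overlapped between diets in both tables, but some single markers did not. Clec4f of Kupffer cells was lower, at 25.5 to 32.7 FPKM in Ctrl and 17.0 to 23.0 in B2D. With fenofibrate it was also lower, at 20.5 to 33.7 and 11.5 to 20.2 FPKM. The other Kupffer cell markers overlapped in both tables. Ngfr of stellate cells was higher in B2D. In B2D+FF Lyve1 of endothelial cells was higher, and Pdgfrb of stellate and Sox9 of bile duct cells were lower. Of all genes tested, 4.98% without and 14.3% with fenofibrate did not overlap, so nothing is read from these single markers. The part of these cell types in the differences of the members was not tested.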

How the data were processed

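Liver mRNA of 18 mice was sequenced as paired ends of 150 bases. The authors used STAR to align reads to mm10, featureCounts to count them and DESeq2 to test genes. Versions are not given in the sources used here. The authors deposited 1 table of FPKM values per experiment, with gene lengths and GRCm38 coordinates, and call the values RPKM in their methods. Each column was assigned to its mouse by the number that name and title share, and mice are numbered in accession order, so equal numbers pair no mice.

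FPKM were used as deposited. Whole reads were worked out from the step that 1 read makes, and 3 reads were taken as the floor. The filter was a mean of 0.5 FPKM over a table. Each table was fitted alone with limma 3.58.1 in R 4.3.3 (variance trend, two-sided) after adding a pseudocount of 1 and taking log2, with Benjamini-Hochberg adjustment over all genes tested and a threshold of 0.05; the test was checked on simulated data. This replaces the authors' test on counts, since the deposited values are normalized. A cell type's summed level is the sum of its markers' FPKM. Promoters are from RefSeq, which held all 8 members, and transcripts from GENCODE.

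The 8 members and all gene lists were chosen with earlier results of these data known. Named besides the members are up to 5 genes per pathway class and comparison past the threshold, Rxra, Nr0b2, Hnf4a, Ppargc1a, Por and Alas1 in any case, the 5 genes most like Cyp2b9 and Cyp2b10, and up to 3 genes per sex-biased list. A gene that this rule also names is not reported here. Others named were chosen after their values were seen. As alternatives, the pseudocount was 0.1, the filter was dropped or set at 5 FPKM, and the others were rescaling to one upper quartile, quantile normalization, array weights, limma voom on the recovered reads and each mouse left out.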

Additional observations from a re-analysis of the deposited data

Results flagged for a closer look

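Among 35 sets of values by group, 3 held a mouse far from the others of its group. Chance gives about 1 in 20 for independent normal values, but these sets share mice and some rest on few reads. Cyp2b10 in B2D 4 was at 10.6 FPKM, and its gap to the next B2D mouse was 0.803 of the group's range. Cyp2b13 in B2D 4 was at 0.385 FPKM, from 14 reads, with 0 in the other B2D mice. Cyp2b13 in B2D+FF 1 was at 0.188 FPKM, from 6 reads, below the 24 or 25 reads of the other B2D+FF mice. B2D 4 thus stood apart in both genes, in Cyp2b13 on 14 reads only.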

How the results depend on the processing

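Under 7 other settings no tested member changed direction. With 1 mouse left out, small differences without fenofibrate changed sign for Cyp2c29 (Ctrl 3 left out) and Cyp3a11 (Ctrl 1, Ctrl 3 or B2D 4), and no others did. The log2 fold change without fenofibrate moved to 6.77 for Cyp2b9 and 3.99 for Cyp2b10 with a pseudocount of 0.1, and to 8.01 and 5.31 with limma voom. With each mouse left out, the log2 ratio of the Cyp2b sum was 6.26 to 8.03 (7.10 in all) without fenofibrate and 0.804 to 1.03 (0.914) with it. Genes called by limma fell from 313 to 67 and from 529 to 272 with no filter, which more than doubled the genes tested, and with fenofibrate rose to 885 with array weights. With 1 mouse left out they ranged from 98 (without Ctrl 4) to 332 and from 175 (without Ctrl+FF 1) to 596. Upper-quartile rescaling gave 223 higher and 366 lower with fenofibrate, against 266 and 263. Pathway genes called, 2 without fenofibrate, were 4 with a pseudocount of 0.1 or voom, 6 with array weights, 0 by limma with no filter (11 higher and 13 lower at an unadjusted p under 0.05) and 1 to 4 with 1 mouse left out. The 6 with fenofibrate became 2 with no filter, 12 with a mean of at least 5 FPKM, 19 with array weights, 14 with voom and 2 to 8 with 1 mouse left out. The causes were not tested. Genes with few reads, Cyp2b13 and the Ctrl values of Cyp2b9 and Cyp2b10, are limited by depth. No paired analysis was possible because the labels give the mice no shared replicate numbers.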

Other observations

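3 pathway genes outside the rule were chosen after their values were seen. Cyp1a2, a P450 best known as a target of the aryl hydrocarbon receptor, was at 91.3, 79.1, 71.5, 149 and 1906 FPKM in Ctrl 1 to 5, so that Ctrl 5 stood alone, and at 47.4 to 84.5 FPKM in B2D. Cyp2a4, a steroid hydroxylase higher in female liver, was at 0.0331 to 0.468 FPKM in Ctrl and at 1.34, 5.60, 1.64, 36.1 and 1.30 in B2D, with B2D 4 highest as for Cyp2b9 and Cyp2b10. Its limma adjusted p was 0.121, the groups did not overlap, and it reached the filter only through the B2D mice. Sult1e1, which sulfates oestrogens, was at 0.0385 to 0.0905 FPKM in Ctrl and 0.262 to 2.86 in B2D, again with B2D 4 highest. With fenofibrate it was at 2.65, 0.489, 0.695 and 0.950 FPKM in Ctrl+FF and at 26.2, 3.21, 4.75 and 10.6 in B2D+FF, apart in every mouse, with a log2 fold change of 2.18 and a limma adjusted p of 0.0541.

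The near-identical P450s Cyp3a41a and Cyp3a41b, whose transcripts were 99.7% identical, were listed at 0 in every library. They share 82.9% and 82.7% of their windows of 150 bases with each other.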
